A study of Mus musculus with 27 samples.

Results

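The genes described here are the ligands, receptors and soluble inhibitors of the interleukin, tumour necrosis factor (TNF) and colony-stimulating factor systems, with the receptors for interferons. They were taken by symbol from the annotation of the array, as symbols that begin with Il and a digit, Tnf itself, and those beginning with Tnfsf, Tnfrsf, Csf1, Csf2, Csf3 (without Csf1r), Ifngr or Ifnar. This gave 120 genes with 211 probes, of 19057 genes with 1 symbol. RNA came from the liver, epididymal white adipose tissue (WAT) and gastrocnemius muscle of male C57BL/6J mice (1 label field writes C56BL/6J), received at 4 weeks of age. The ND mice ate a normal diet, the HFD mice a diet with 20% fat and 1% cholesterol, and the UR mice that same HFD containing ursolic acid, a plant triterpenoid, at 0.05% by weight, in each case for 16 weeks. Each of the 9 groups of tissue and diet had 3 arrays, each of 1 pool of RNA, so every n counts pools, and the mice behind each pool are not stated. The p-values therefore measure the spread between pools.

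Cytokines of these families are secreted or membrane-bound signals between immune cells and the cells of a tissue. Interleukins with receptors of the haematopoietin class signal through receptor-bound JAK kinases and STAT factors, receptors of the IL-1 and TNF families act largely through adaptor proteins that lead to NF-kB, and several family members are decoys or antagonists that block a ligand. In obesity, macrophages gather in WAT, and TNF and IL-1 are known to impair insulin signalling in fat cells and hepatocytes. A few names mislead. Il4i1 encodes an amino acid oxidase of myeloid and B cells, Il16 a chemoattractant unrelated in sequence to other interleukins, and Tnfsfm13 is the read-through entry of the neighbouring genes for TWEAK and APRIL.

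Detection of a gene in a tissue required 1 probe whose detection p, the scanner software's comparison with negative-control beads, stayed under 0.05 throughout the 3 arrays of some diet. By this rule 62 of the 120 genes were detected in any tissue, 29 in all 3, and 58 in none. WAT had most, with 57, the liver had 47 and muscle 34. Over all 19057 genes the same rule detected 10753 in WAT, 9784 in the liver and 9313 in muscle. The order of the tissues was thus that of all genes, and in each tissue these genes were detected less often than all genes. Receptors were detected more often than ligands, with 41 of 59 receptors against 15 of 51 ligands. Among the classic inflammatory ligands, Il6 and Il10 were not detected on any array of the 27. Tnf passed only in WAT, on 0 of 3 arrays with the ND, 2 with the HFD and 3 with UR. Il1b was detected in the liver on all 9 arrays and in WAT on 3, 2 and 3 arrays, and Il1a only in the liver. Il17a, Il4ra, Il17ra and Ifnar1 were likewise detected on 0 arrays, Il4 on 1 array and Il2 on 2, short of the rule. A few genes entered the tests through a single diet. They were Il17rd, Il5ra and Tnfrsf8 (HFD) with Il16 and Il2rb (UR) in the liver, Il13ra2 (HFD) with Il13 and Tnf (UR) in WAT, and Il27ra (ND) with Il1rl2 (HFD) in muscle. For these the detection filter itself favours a difference.

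Signals were summed per array as a measure of depth. Sums in the liver ran from 33610124 to 45514171, those of WAT from 41872756 to 47550050, and those of muscle from 25797192 to 31855725. Each UR array of the liver summed to at least 40602071, whereas no other liver array exceeded 36807245. In WAT the UR arrays reached at most 42744314, below every other WAT array, the lowest being 42970504. Depth and UR therefore cannot be told apart in liver or WAT, while in muscle the diets overlapped. Liver arrays of the ND detected 34.2% to 35.0% of probes, those of the HFD 36.5% to 37.2% and those of UR at least 38.7%, so that detection and diet cannot be told apart there. The same holds for UR in muscle, with 37.6% to 38.1% against 35.5% to 35.8% (HFD) and 35.8% to 36.7% (ND). Tissue labels were borne out by their markers, with 7 of 8 hepatocyte markers kept in the liver (Tat was not detected), all 7 measured adipocyte markers in WAT and all 8 myofibre markers in muscle. Detection alone did not separate the tissues, as WAT also kept 5 of 8 myofibre markers and muscle 4 of 7 adipocyte markers. Summed marker signals on ND arrays were 206927 to 220035 in muscle and 5677 to 7429 in WAT (myofibre). For adipocyte markers they were 142071 to 158085 in WAT and 910 to 1056 in muscle. Values below are log2 normalised signals, and a difference of 1 is a 2-fold change of signal. Diets were compared with limma within each tissue of 9 arrays, and rose or fell is used of genes with a Benjamini-Hochberg adjusted p under 0.05 over all genes of the tissue. Each comparison of UR against HFD uses the same HFD arrays as that of HFD against ND, so their values are given side by side with no test of one against the other.

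In WAT, the HFD raised 23 of the 57 detected genes and lowered 7. Over all 10753 genes tested in WAT the same comparison called 42.9%, with 20.5% up and 22.4% down, against 52.6% of the genes described here. The median change was 0.08 for the 57 genes and -0.02 for all genes. The increases were led by receptors of lymphoid and myeloid cytokines, Il7r, Csf2ra and Csf2rb2, and by the IL-1 receptor antagonist Il1rn. Of the receptors measured, 15 of 37 rose and 5 fell, and of the ligands 4 of 14 rose and 2 fell. In bulk tissue, more cells of a type and more RNA per cell cannot be told apart.

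**Figure D1:**
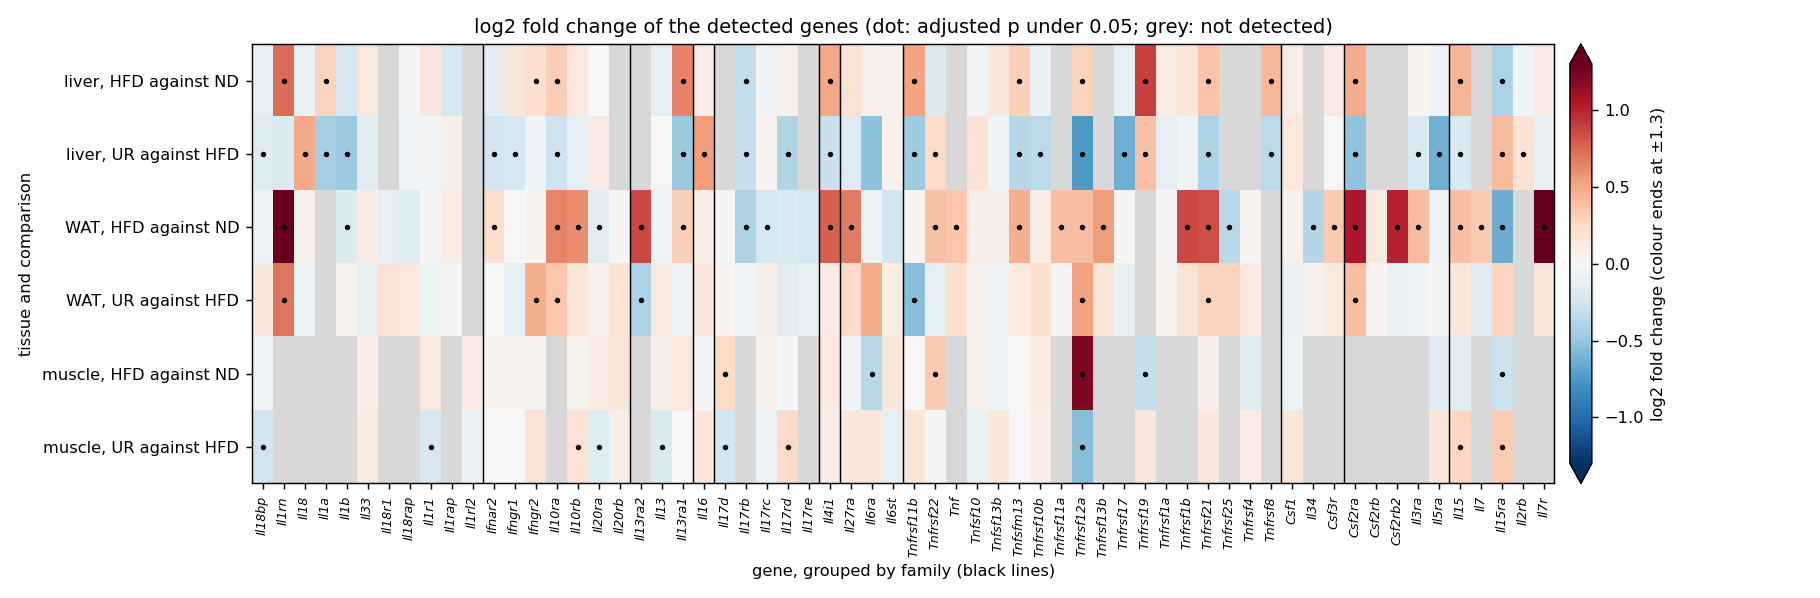
Heat map of the log2 fold change of the 62 detected genes (columns, grouped by family) in each tissue and comparison (rows). Dots mark an adjusted p under 0.05, grey marks genes not detected in the tissue, and the colours end at a value that Il7r and Il1rn in WAT exceed. In WAT 23 of 57 genes rose with the HFD. In the liver 21 of 47 fell with UR after quantile normalization, and 9 after median scaling.

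Il7r encodes the alpha chain of the IL-7 receptor, best known from T lymphocytes and their precursors. In WAT its values were 8.68, 8.95 and 8.75 with the ND, 11.57, 11.68 and 11.22 with the HFD, and 11.75, 11.78 and 11.41 with UR. Every HFD and UR array lay more than 2 units above every ND array. The increase with the HFD was 2.69 ± 0.13 (SE, adjusted p = 2.37e-08), a 6.47-fold difference and the largest among these genes in the 3 tissues, while UR differed from the HFD by 0.16 (adjusted p = 0.464). All 4 of its probes rose, by 2.69, 1.16, 0.43 and 0.30. Its ligand Il7, made by stromal cells, rose as well, by 0.34 ± 0.08 (SE, adjusted p = 0.00326). In the liver Il7r stayed between 7.49 and 7.76 on all 9 arrays. The letters TTCNNNGAA, which STAT dimers recognise, occur once in the 250 bases before its start and once before that of Csf2rb2, described below, and both stretches are shown because these are among the 4 largest increases. They are taken from RefSeq on GRCm38.p6 and run 5′ to 3′, with the match in capitals, for Il7r at chr15:9529877-9530126 on the minus strand, where the match begins 142 bases before the start, and for Csf2rb2 at chr15:78305722-78305971 on the minus strand, where it begins 15 bases before the start. The annotated span of Il7r reaches 9529941, inside its stretch, so the start meant for it is that of the promoter entry.
Il7r: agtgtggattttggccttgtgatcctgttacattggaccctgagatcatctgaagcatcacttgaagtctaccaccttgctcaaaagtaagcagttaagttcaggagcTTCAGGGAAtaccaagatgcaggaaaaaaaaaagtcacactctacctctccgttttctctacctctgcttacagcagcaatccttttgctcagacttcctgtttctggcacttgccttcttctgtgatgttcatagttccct
Csf2rb2: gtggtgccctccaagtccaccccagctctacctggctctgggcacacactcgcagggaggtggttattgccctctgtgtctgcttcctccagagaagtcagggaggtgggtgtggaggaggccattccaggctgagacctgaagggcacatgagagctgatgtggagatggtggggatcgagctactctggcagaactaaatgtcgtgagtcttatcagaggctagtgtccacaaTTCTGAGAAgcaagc

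Searched on both strands, these letters were found in 7.02% of all 32851 RefSeq promoter stretches of that length and in 13.5% of the 111 stretches of 94 genes described here. A match is no evidence that a factor binds there. The AP-1 letters TGANTCA were found in 6.75% of all stretches and 16.2% of those 111, and the NF-kB letters (GGGA, any 2 bases, then TTCC), which can share bases with the STAT letters, in 1.21% and 5.41%. Il1rn is shown because it carried the second largest increase in WAT. It has 3 entries, and the one printed, chr2:24336610-24336859 on the plus strand, was chosen because it alone holds the AP-1 letters, in capitals 141 bases before the start.
Il1rn: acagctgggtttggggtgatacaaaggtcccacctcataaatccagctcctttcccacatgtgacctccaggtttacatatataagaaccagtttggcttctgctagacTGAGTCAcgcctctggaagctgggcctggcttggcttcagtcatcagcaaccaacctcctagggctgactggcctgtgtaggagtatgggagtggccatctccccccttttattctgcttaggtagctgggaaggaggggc

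Il1rn encodes the IL-1 receptor antagonist, which occupies the type 1 receptor without signalling. Its values in WAT were 7.81, 7.63 and 7.64 with the ND, 9.77, 9.60 and 9.27 with the HFD, and 10.41, 10.30 and 10.01 with UR. The 3 diets did not overlap, with the ND lowest and UR highest. With the ND no array detected the probe, so the HFD level was at least 3.36-fold higher, and the fitted difference was 1.85 ± 0.12 (SE, adjusted p = 2.84e-07). UR lay above the HFD by 0.69 ± 0.12 (SE, adjusted p = 0.00923), a difference that gave an adjusted p of 0.0536 without UR replicate 2. The second probe rose with the HFD by 0.56 and differed with UR by -0.03. The ligand it competes with, Il1b, changed little with the HFD in WAT, by -0.18 ± 0.06 (SE, adjusted p = 0.0438). That call was lost without any 1 of the arrays other than ND replicate 2 and HFD replicate 2 (adjusted p between 0.0541 and 0.182). The signalling receptor Il1r1 and its accessory protein Il1rap differed by -0.01 and 0.09 with the HFD and did not pass the test.

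Receptors that share the common beta chain, through which GM-CSF, IL-3 and IL-5 act on myeloid cells, rose in WAT with the HFD in 3 of 5 cases. Csf2ra, the alpha chain of the GM-CSF receptor, measured 10.28, 10.21 and 10.15 with the ND, 11.41, 11.27 and 11.11 with the HFD, and 11.60, 11.79 and 11.57 with UR. It stepped up from ND to HFD and again from HFD to UR, with no overlap. The differences were 1.05 ± 0.08 (SE, adjusted p = 1.08e-06) for HFD against ND and 0.39 ± 0.08 (SE, adjusted p = 0.0203) for UR against HFD. Csf2rb2 measured 8.55, 8.55 and 8.51 with the ND, 9.61, 9.64 and 9.34 with the HFD, and 9.50, 9.48 and 9.35 with UR, an increase with the HFD of 1.00 ± 0.08 (SE, adjusted p = 1.18e-06). Il3ra rose by 0.41, whereas Csf2rb (0.12) and Il5ra (-0.06) did not pass. Csf2rb and Csf2rb2 are near-identical copies, and how their probes share signal is uncertain.

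The decoy receptor of IL-13, Il13ra2, measured 7.33, 7.15 and 7.31 with the ND, 7.95, 8.30 and 8.13 with the HFD, and 7.78, 7.64 and 7.75 with UR. It rose with the HFD by 0.86 ± 0.08 (SE, adjusted p = 5.04e-06), or at least 1.25-fold since no ND array detected it, and fell with UR by 0.40 on the log2 scale (SE 0.08, adjusted p = 0.0169). Il13ra2 entered the test only through its detection on the HFD arrays, so the filter favours both changes. The signalling chain Il13ra1 rose by 0.31 ± 0.06 (SE, adjusted p = 0.00205) with the HFD. Il27ra, the receptor of IL-27, rose by 0.68 ± 0.07 (SE, adjusted p = 1.55e-05), and both chains of the IL-10 receptor rose, Il10ra by 0.63 ± 0.07 (SE, adjusted p = 2.41e-05) and Il10rb by 0.61 ± 0.11 (SE, adjusted p = 0.000765). Il10ra alone of the pair then rose further with UR, by 0.36 ± 0.07 (SE, adjusted p = 0.0164). The oxidase Il4i1 rose with the HFD by 0.78 ± 0.08 (SE, adjusted p = 6.77e-06). Il15, a ligand that sustains natural killer and memory T cells, rose by 0.39 ± 0.06 (SE, adjusted p = 0.000286), while the alpha chain that presents it, Il15ra, was the largest decrease. Il15ra measured 10.43, 10.12 and 10.36 with the ND, 9.64, 9.69 and 9.65 with the HFD, and 9.87, 9.94 and 10.01 with UR, with every HFD array below every ND array. Its change with the HFD was -0.64 ± 0.08 (SE, adjusted p = 3.87e-05), and its 4 probes changed by -0.64, -0.61, -0.62 and -0.54.

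Of the TNF family, 8 of 16 genes rose in WAT with the HFD and 1 fell. Tnf itself measured 7.47, 7.40 and 7.46 with the ND, 7.87, 7.86 and 7.69 with the HFD, and 8.10, 8.02 and 7.88 with UR, all near the limit of detection. The increase with the HFD was 0.36 ± 0.07 (SE, adjusted p = 0.000961), no more than a bound of at least 1.00-fold could be given against the undetected ND level, and UR differed from the HFD by 0.19 (adjusted p = 0.103). Of its 2 receptors, Tnfrsf1b, the form found mainly on leukocytes, measured 8.95, 9.06 and 8.94 with the ND, 9.95, 9.88 and 9.70 with the HFD, and 10.17, 9.92 and 9.94 with UR and rose with the HFD by 0.86 ± 0.08 (SE, adjusted p = 6.37e-06). Tnfrsf1a, present on most cells, differed by 0.02 (adjusted p = 0.86). Tnfrsf21, a death-domain receptor, rose by 0.84 ± 0.08 (SE, adjusted p = 3.36e-06), Tnfrsf13b, a receptor of B cells for BAFF and APRIL, by 0.54 ± 0.07 (SE, adjusted p = 5.67e-05), and the RANK gene Tnfrsf11a by 0.41 ± 0.05 (SE, adjusted p = 8.35e-05). Tnfsfm13 rose by 0.47, Tnfrsf12a by 0.39 and Tnfrsf22 by 0.38, although a dimmer probe of Tnfsfm13 and 2 of Tnfrsf22 did not pass, while Tnfrsf25 changed by -0.36 ± 0.09 (SE, adjusted p = 0.00628). The other genes of the 57 that fell with the HFD were Il17rb (-0.40) and Il17rc (-0.23), which are IL-17 family receptors, Il34 (-0.38), a second ligand of the CSF-1 receptor, and Il20ra (-0.15).

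**Figure D2:**
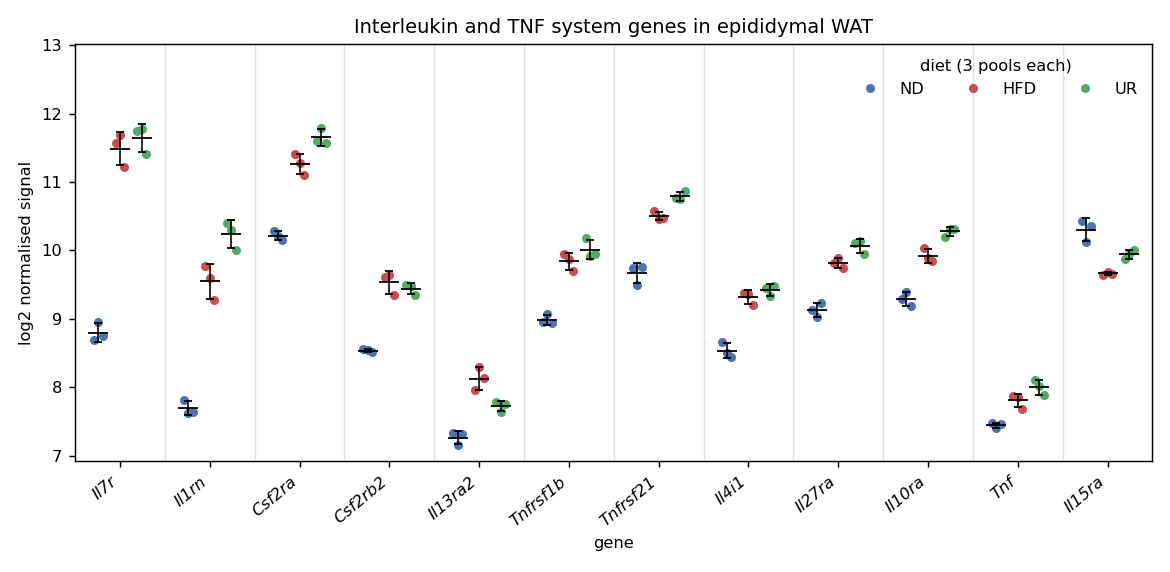
Log2 normalised signal of 12 genes in epididymal WAT. Points are pools, 3 for each diet, and bars give the mean ± SD. Il7r, Il1rn, Csf2ra and Csf2rb2 are higher in every HFD and UR pool than in every ND pool, and Il15ra is lower.

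Calls among the pathway genes and cell markers that follow are to be read against all genes of WAT. With the HFD 42.9% of those were called, 20.5% up and 22.4% down, and with UR 6.98%. Below the receptors, the NF-kB list of subunits, inhibitors and kinases had 15 of 18 genes tested in WAT, of which 6 rose and 0 fell with the HFD. Among them were the feedback inhibitors Tnfaip3 (0.65), Tnip1 (0.52) and Nfkbie (0.28) and the kinase Ikbke (0.51). The list of JAK kinases, STAT factors and their inhibitors had 3 genes up and 5 down of 18, with Ptpn6, a phosphatase of blood cells, at 1.05, Jak1 at -0.76, the feedback inhibitor Cish at -1.18 and Stat5a at -0.30. Of the IL-1 receptor adaptors 3 of 11 rose and 3 fell, including Casp1, which cleaves the IL-1 beta precursor, at 1.26. Of 16 TNF receptor adaptors 5 rose and 1 fell, with Traf1 at 0.49, Ripk3 at 0.38 and the caspase inhibitor Cflar at -0.30. With UR these 4 lists together had 3 calls, Ikbke (0.31), Irak2 (0.28) and Socs2 (-0.31). Markers of several cell types moved in the same comparison. Of 7 fibroblast markers 5 rose and 0 fell, of 5 mesothelium markers 5 fell, and of 7 adipocyte markers 1 rose and 5 fell. Of 11 macrophage markers 8 rose (Adgre1 by 1.73) and 1 fell. The summed macrophage signal went from between 63949 and 71370 on ND arrays to between 97586 and 103575 on HFD arrays, and lay between 98124 and 108232 on UR arrays, and the Kupffer cell marker Clec4f was not detected. Of 7 T cell markers measured 3 rose (Cd8b1, Cd6 and Lat) and 0 fell, and their sums were 6750 to 7651 on ND arrays and 8855 to 9430 on HFD arrays. The T cell receptor genes Cd3d, Cd3e and Cd3g did not pass, and Cd4, Cd8a, Cd5 and Trat1 were not detected. Of 3 B cell markers 0 rose and 1 fell. Natural killer cell markers also fell in 1 of 3 cases and rose in 0 (sums of 1747 to 2148 and 1599 to 1799). Of 4 neutrophil markers 2 rose (sums of 1254 to 1889 and 3011 to 4650), with Mpo, Camp, Ngp, S100a9 and Retnlg not detected. Of the markers that rose, Csf3r is itself among the 57 genes described here, so it is no separate marker of neutrophils. The part of these markers in the changes of the cytokine receptors was not tested.

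With UR added to the HFD, 8 of the 57 genes passed the test in WAT, 6 up and 2 down, where 6.98% of all genes did (3.24% up and 3.75% down). The 6 that rose were Il1rn, Tnfrsf12a, Ifngr2, Csf2ra, Il10ra and Tnfrsf21, and the decoys Tnfrsf11b and Il13ra2 fell. Tnfrsf12a, the receptor for TWEAK that is induced in growing or injured tissue, measured 9.72, 9.57 and 9.75 with the ND, 10.12, 10.00 and 10.10 with the HFD, and 10.58, 10.67 and 10.53 with UR. UR lay above the HFD on every array, by 0.52 ± 0.07 (SE, adjusted p = 0.00212). Tnfrsf11b, the soluble RANKL decoy osteoprotegerin, measured 9.59, 9.14 and 9.59 with the ND, 9.60, 9.43 and 9.36 with the HFD, and 8.99, 8.83 and 8.89 with UR, with UR below both other diets, and changed by -0.56 ± 0.11 (SE, adjusted p = 0.0145). Ifngr2, a chain of the interferon gamma receptor, rose by 0.47 ± 0.10 (SE, adjusted p = 0.0154) on its brightest probe, whereas the other 2 probes differed by 0.01 and -0.02. Tnfrsf21 rose by 0.29 ± 0.08 (SE, adjusted p = 0.0402), and by 0.09 on its other probe, which did not pass. Most of these calls rest on few arrays. Without UR replicate 2 only 1 gene passed, Tnfrsf12a, and without HFD replicate 2 or 3 there were 3, with Il1rn and Tnfrsf11b. Csf2ra was also lost without UR replicate 1 and Il10ra without UR replicate 3, and Tnfrsf21 without any 1 of the 6 HFD and UR arrays (adjusted p between 0.0543 and 0.13). None of the 11 macrophage and 7 T cell markers passed in this comparison, and 1 of 3 B cell and 1 of 3 natural killer cell markers rose. However, 4 of 5 mesothelium markers fell (sums of 2249 to 2931 on HFD arrays and 1109 to 1224 on UR arrays) and 3 of 7 fibroblast markers fell (69955 to 72302 and 59032 to 64469). Their part in the change of Tnfrsf11b was not tested. Set directly against the ND from the same fit, the UR arrays were higher for Il1rn by 2.55, Il7r by 2.85, Csf2ra by 1.44 and Tnfrsf12a by 0.92.

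In the liver, the HFD raised 14 of the 47 detected genes and lowered 2. All genes of the liver were called in 28.4% of cases, 16.7% up and 11.7% down, against 34.0% of these 47. The median change was 0.10 for the 47 genes and 0.00 for all. The largest increase was that of Tnfrsf19, or TROY, an orphan TNF receptor, which measured 7.47, 7.39 and 7.52 with the ND, 8.59, 8.26 and 8.21 with the HFD, and 8.60, 8.76 and 8.86 with UR. No ND array detected it, and the HFD level was at least 1.67-fold higher, with a fitted difference of 0.89 ± 0.10 (SE, adjusted p = 5.59e-05). UR lay above the HFD by 0.38 ± 0.10 (SE, adjusted p = 0.00574), so the gene was highest with UR. Il1rn measured 8.16, 8.14 and 7.91 with the ND, 8.70, 8.88 and 8.81 with the HFD, and 8.75, 8.68 and 8.43 with UR, and rose with the HFD by 0.72 ± 0.09 (SE, adjusted p = 0.00016). Il13ra1, the IL-13 receptor chain, rose by 0.64 ± 0.08 (SE, adjusted p = 0.000111) and Tnfrsf11b by 0.52 ± 0.09 (SE, adjusted p = 0.00132). Csf2ra rose by 0.48 ± 0.09 (SE, adjusted p = 0.00149), Il4i1 by 0.50 ± 0.10 (SE, adjusted p = 0.00235) and Tnfrsf8, or CD30, by 0.42 ± 0.06 (SE, adjusted p = 0.000338). Il15 rose by 0.44 ± 0.07 (SE, adjusted p = 0.00108) on its brightest probe while its other 2 probes did not pass, and Il15ra changed by -0.41 ± 0.06 (SE, adjusted p = 0.000303), with all 4 of its probes lower. The smaller increases were Il10ra (0.32), Tnfsfm13 (0.31), Il1a (0.29), Ifngr2 (0.21), Tnfrsf21 (0.38) and Tnfrsf12a (0.29), and the second decrease was Il17rb (-0.32). Tnfrsf12a no longer passed without ND replicate 1, ND replicate 3 or HFD replicate 3 (adjusted p of 0.0698, 0.0698 and 0.0970).

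With UR, 21 of the 47 genes were lower in the liver than with the HFD and 6 were higher. Among all genes 54.7% were called, 35.4% down and 19.3% up, against 57.4% of these 47, and the medians were -0.17 and -0.09. The balance of direction was not stable to normalization. Dividing each array by its median instead gave 9 genes down and 11 up, with 15 of those 27 calls kept, 12 lost and 0 turned, while the median of all genes shifted by 0.19. Of the genes named next, Il13ra1, Il1b, Tnfrsf21 and Il15 were among the 12. The decreases included the receptors Tnfrsf12a, Tnfrsf17, Il5ra and Csf2ra, and the increases Il16, Il18 and Il15ra.

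**Figure D3:**
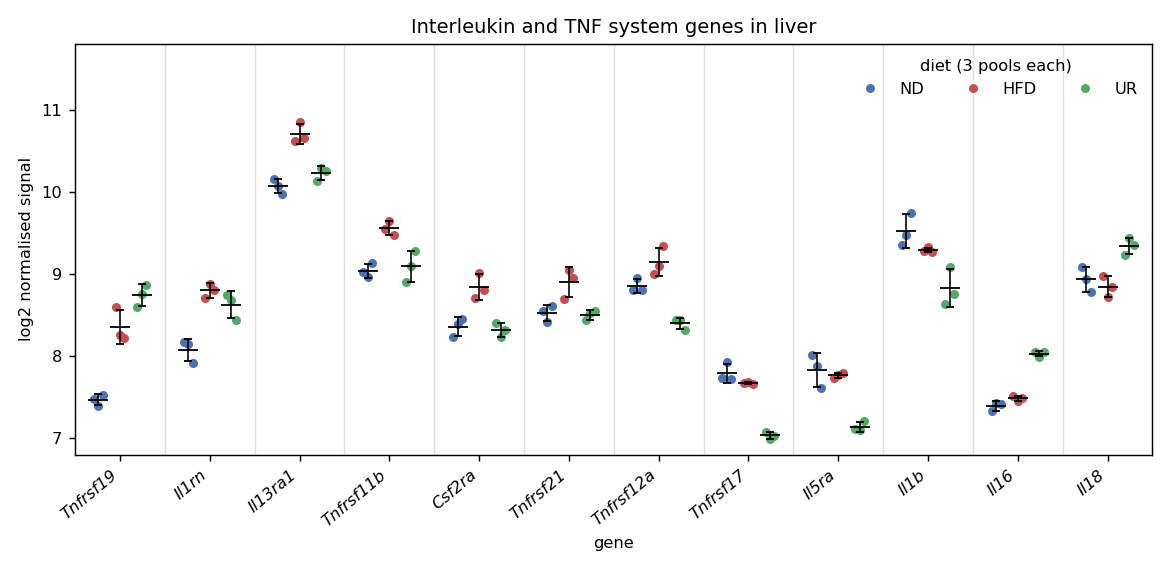
Log2 normalised signal of 12 genes in the liver. Points are pools, 3 for each diet, and bars give the mean ± SD. Csf2ra and Tnfrsf11b lie highest with the HFD, Tnfrsf19 and Il16 highest with UR, and Tnfrsf17 and Il5ra lowest with UR.

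Tnfrsf12a showed the largest decrease in the liver. It measured 8.80, 8.95 and 8.81 with the ND, 8.99, 9.10 and 9.34 with the HFD, and 8.44, 8.43 and 8.32 with UR, with every UR array below every array of the other diets. The change was -0.75 ± 0.09 (SE, adjusted p = 1.82e-05). Its 250 bases before the start, on the minus strand of chr17:23677450-23677699 in GRCm38.p6, are shown because the gene passed the test in every tissue and comparison, and they hold none of the 3 motifs searched, so nothing is in capitals.
Tnfrsf12a: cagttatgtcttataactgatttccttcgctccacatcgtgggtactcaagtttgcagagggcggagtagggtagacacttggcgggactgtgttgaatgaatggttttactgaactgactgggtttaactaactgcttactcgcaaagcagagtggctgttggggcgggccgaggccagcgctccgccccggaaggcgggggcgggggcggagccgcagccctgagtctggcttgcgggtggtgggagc

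Tnfrsf17, the B cell maturation antigen BCMA, measured 7.73, 7.92 and 7.72 with the ND, 7.67, 7.68 and 7.65 with the HFD, and 7.08, 6.99 and 7.02 with UR and changed with UR by -0.64 ± 0.06 (SE, adjusted p = 4.79e-06). Il5ra, the IL-5 receptor chain of eosinophils and B cells, measured 8.01, 7.88 and 7.60 with the ND, 7.73, 7.77 and 7.79 with the HFD, and 7.11, 7.10 and 7.21 with UR and changed by -0.63 ± 0.09 (SE, adjusted p = 8.2e-05). Neither probe was detected on a UR array, so the HFD levels were at least 1.13-fold and 1.2-fold higher. Csf2ra measured 8.23, 8.38 and 8.45 with the ND, 8.70, 9.01 and 8.80 with the HFD, and 8.39, 8.23 and 8.32 with UR. It was higher with the HFD than with either other diet, by 0.48 over the ND, and changed with UR by -0.52 ± 0.09 (SE, adjusted p = 0.000318). The HFD level was also the highest for Tnfrsf11b, at 9.02, 8.96 and 9.13 with the ND, 9.54, 9.65 and 9.48 with the HFD, and 8.90, 9.10 and 9.28 with UR, which changed with UR by -0.46 ± 0.09 (SE, adjusted p = 0.00109), and for Tnfrsf8, which changed by -0.35 ± 0.06 (SE, adjusted p = 0.000373). Il3ra, another alpha chain that pairs with the common beta chain, changed by -0.20. Il5ra and Tnfrsf8 entered the test only through their detection on all 3 HFD arrays, so the filter favours their fall. Il13ra1 changed by -0.48 ± 0.08 (SE, adjusted p = 0.000246) and Tnfrsf21 by -0.40 ± 0.09 (SE, adjusted p = 0.00247), but after median scaling by -0.20 and -0.21 (adjusted p of 0.109 and 0.0705).

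Of the IL-1 family ligands, Il1b measured 9.35, 9.47 and 9.75 with the ND, 9.28, 9.32 and 9.27 with the HFD, and 8.63, 9.08 and 8.75 with UR and changed with UR by -0.47 ± 0.12 (SE, adjusted p = 0.00457), or by -0.26 after median scaling (adjusted p = 0.0882). Il1a changed by -0.43 ± 0.09 (SE, adjusted p = 0.00208) on its brightest probe, while the dimmer probe rose by 0.27. Il18, another IL-1 family ligand that promotes interferon gamma production, went the other way. Il18 measured 9.08, 8.94 and 8.78 with the ND, 8.97, 8.72 and 8.84 with the HFD, and 9.23, 9.43 and 9.35 with UR, a rise of 0.50 ± 0.09 (SE, adjusted p = 0.00061) with every UR array on top, and its binding protein Il18bp changed by -0.17. Il16 measured 7.32, 7.43 and 7.42 with the ND, 7.51, 7.44 and 7.49 with the HFD, and 8.04, 7.99 and 8.04 with UR. No HFD array detected it, and UR was higher by 0.54 ± 0.05 (SE, adjusted p = 5.13e-06), at least 1.39-fold. Il16 entered the test only through its detection on the UR arrays, so the filter favours its rise. Il15ra measured 10.03, 9.98 and 9.95 with the ND, 9.62, 9.58 and 9.53 with the HFD, and 9.97, 10.02 and 9.96 with UR and rose by 0.41 ± 0.06 (SE, adjusted p = 9.42e-05), back to the ND level. Of its other 3 probes, 2 differed by 0.12 and 0.15 and the dimmest fell by 0.24 on the log2 scale. Il15 changed by -0.20 ± 0.07 (SE, adjusted p = 0.0408) and its dimmer probes by 0.33 and 0.16, and its call was lost without any 1 of HFD replicates 1 and 2 or UR replicates 1 and 3 (adjusted p between 0.0559 and 0.174). On their brightest probes Il10rb differed by -0.12 (adjusted p = 0.119) and Il1rap by 0.08 (adjusted p = 0.489), although a dim probe of Il10rb rose by 0.63 and 1 of the 6 probes of Il1rap by 1.83. Il1rap passed after median scaling (0.34, adjusted p = 0.0284) and with its probes averaged (0.23, adjusted p = 0.0139). Probes of 1 gene were called in opposite directions for 4 of the 14 genes with several probes in this comparison, Il15, Il15ra, Il1a and Tnfrsf22. There were 0 such genes in the other 5 comparisons.

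Calls in the pathway lists of the liver are to be read against the 28.4% and 54.7% of all genes called with the HFD and with UR, and median scaling turned the calls over all genes with UR from 1887 up and 3460 down to 3275 up and 1168 down. Of 15 NF-kB genes 9 rose and 1 fell with the HFD, and 2 rose and 6 fell with UR. Tnip1 showed both, at 0.60 and -0.62, and Tnfaip3 rose by 0.60 with the HFD. With UR, 5 of 10 IL-1 receptor adaptors fell, among them Casp1 (-0.70), Irak2 (-0.54) and Myd88 (-0.42), and 7 of 15 TNF receptor adaptors fell, Tab2 by 0.41 on the log2 scale. With the HFD 1 of the first list rose and 1 fell, and 4 of the second fell. Of 17 genes of the JAK and STAT list 3 rose and 3 fell with the HFD, Socs2 at -1.90 being the largest, and 3 rose and 7 fell with UR, with Jak1 at 0.78, Socs6 at 0.68 and Socs3 at -0.50. Of 11 macrophage markers 6 rose and 1 fell with the HFD and 3 rose and 5 fell with UR. With the HFD 3 of 6 fibroblast, 3 of 6 endothelium, 2 of 4 neutrophil and 1 of 2 adipocyte markers rose and 0 fell. Of 7 hepatocyte markers 0 rose and 2 fell with the HFD. The summed signal of the macrophage markers lay between 15108 and 16782 on ND arrays, between 25211 and 28829 on HFD arrays and between 14734 and 16408 on UR arrays, with Itgam not detected. The Kupffer cell marker Clec4f changed with UR by -0.97 and the lysozyme gene Lyz2 by -1.48, whereas Adgre1 rose by 0.40. Endothelial markers fell in 5 of 6 cases with UR, from sums of 3724 to 4016 to sums of 2938 to 3110, with Kdr not detected. For T cells 3 of 11 markers were measured, 1 rose with the HFD and 0 passed with UR, and Cd3e, Cd2, Cd4 and Cd8a were not detected. The B cell markers Blk, Cr2, Fcer2a and Pax5 were not detected either, and of the 2 that were measured 1 fell with UR (sums of 404 to 428 and 385 to 404). The part of these marker changes in those of the receptors was not tested.

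In muscle, with the HFD 3 of 34 genes rose and 3 fell, 17.6% against 15.4% of all genes in muscle (7.61% up and 7.74% down). With UR 4 rose and 6 fell, 29.4% against 22.4% (11.5% up and 10.9% down). Scaling to a common median gave 2 up and 5 down for the HFD, as the median of all genes shifted by -0.12, and 4 up and 1 down for UR. Tnfrsf12a stood out in size. It measured 9.97, 9.63 and 9.90 with the ND, 10.85, 11.32 and 10.97 with the HFD, and 10.90, 10.50 and 10.09 with UR, a rise with the HFD of 1.21 ± 0.16 (SE, adjusted p = 0.000456), or 2.32-fold. With UR it changed by -0.55 ± 0.16 (SE, adjusted p = 0.0272). UR replicate 1 lay within the range of the HFD arrays, and the call was lost without HFD replicate 2, UR replicate 2 or UR replicate 3 (adjusted p of 0.108, 0.0701 and 0.111). Tnfrsf22, a decoy receptor for TRAIL with near-identical neighbours, rose with the HFD by 0.34 ± 0.07 (SE, adjusted p = 0.00664), with -0.03 on its other probe.

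**Figure D4:**
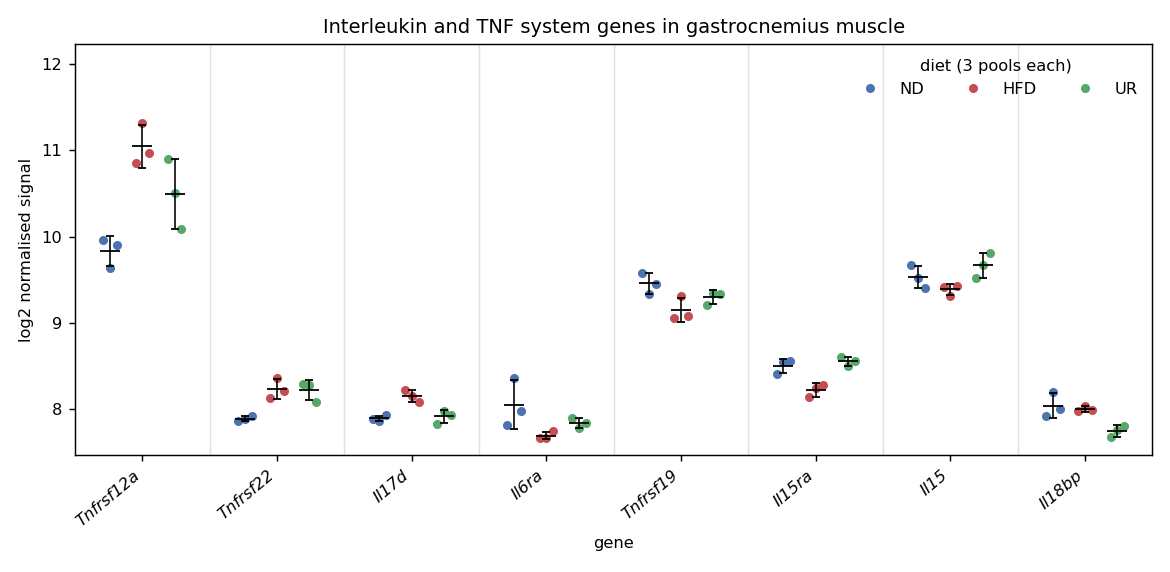
Log2 normalised signal of 8 genes in gastrocnemius muscle. Points are pools, 3 for each diet, and bars give the mean ± SD. Tnfrsf12a is higher in every HFD pool than in every ND pool, and Il15ra is lower with the HFD than with either other diet.

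Il15ra measured 8.41, 8.54 and 8.56 with the ND, 8.14, 8.25 and 8.29 with the HFD, and 8.61, 8.50 and 8.55 with UR. The HFD arrays lay below all others, with changes of -0.28 ± 0.06 (SE, adjusted p = 0.011) for the HFD and 0.33 ± 0.06 (SE, adjusted p = 0.00294) for UR. Of its 4 probes only 2 fell with the HFD and only 2 rose with UR, and the others did not pass. Il15, a cytokine that contracting muscle is known to release, differed by -0.14 (adjusted p = 0.242) with the HFD, or by -0.32 after median scaling (adjusted p = 0.0167), and rose with UR by 0.28 ± 0.08 (SE, adjusted p = 0.0241), a call lost without HFD replicate 2, UR replicate 2 or UR replicate 3 (adjusted p between 0.065 and 0.102). Its second probe changed by -0.32 and 0.61 in those comparisons and the third by 0.09 and -0.05. Il17d, an IL-17 family ligand, changed by 0.26 ± 0.06 (SE, adjusted p = 0.0109) and -0.24 ± 0.06 (SE, adjusted p = 0.0121), both lost after median scaling and the second also without UR replicate 1 (adjusted p = 0.0523). Il6ra, the IL-6 receptor, changed with the HFD by -0.36 ± 0.10 (SE, adjusted p = 0.0305), or by -0.20 without ND replicate 2 (adjusted p = 0.0815), and the call was also lost without any 1 of the HFD arrays (adjusted p up to 0.0827). Its other probe differed by -0.03. Tnfrsf19, which rose in the liver, changed here by -0.31 ± 0.08 (SE, adjusted p = 0.0204) and was lost without ND replicate 1, HFD replicate 1 or HFD replicate 3 (adjusted p between 0.0724 and 0.0806). The remaining calls with UR were small. Il17rd (0.25, but -0.17 on its other probe and 0.041 with both averaged, adjusted p = 0.572) and Il10rb (0.19) rose, and Il18bp (-0.26), Il1r1 (-0.20), Il13 (-0.18) and Il20ra (-0.17) fell. Each of these 6 was lost in at least 2 fits that left out 1 array (adjusted p between 0.0518 and 0.145), and the 4 decreases also after median scaling. Macrophage markers rose in 5 of 8 cases and fell in 0 with UR in muscle, from sums of 3764 to 3999.8 to sums of 4746 to 6008, with Itgam, Clec4f, Marco and Msr1 not detected. Of 7 fibroblast markers 6 rose (sums of 13662 to 14695 and 17309 to 18760). Of 4 adipocyte markers 1 rose and 0 fell (sums of 1114 to 1268 and 1145 to 2083), with Plin1, Retn and Fabp4 not detected. With UR against the ND, 3 of these 4 rose. Of 8 myofibre markers 0 rose and 1 fell with UR against the HFD. The part of these marker changes in those of the genes described here was not tested.

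Calls in the pathway lists of muscle are to be read against the 15.4% and 22.4% of all genes called with the HFD and with UR. In the JAK and STAT list 1 of 14 genes rose and 4 fell with the HFD (Stat3 at 0.35, Jak2 at -0.34, Socs5 at -0.39). With UR 5 rose and 1 fell (Jak1 and Socs5 each at 0.39). Of 12 NF-kB genes Tnip2 rose with the HFD (0.24) and Tnfaip3 with UR (0.37). Of 12 TNF receptor adaptors Fadd rose with the HFD (0.25) and Tab2 fell with UR (-0.20), and of 9 IL-1 receptor adaptors 1 rose and 1 fell with the HFD (Myd88 at 0.18, Peli1 at -0.35) and 2 rose and 1 fell with UR (Peli1 at 0.27, Irak3 at 0.26, Myd88 at -0.20).

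The tissues were compared in 1 limma model over the 27 arrays, for the genes detected in both tissues of a pair. The response to the HFD differed between liver and WAT for 15 of 43 genes, where 35.3% of all genes did. That to UR differed for 21 of 43 between liver and WAT (51.3% of all genes) and for 15 of 30 between liver and muscle (42.3% of all genes). Tnfrsf12a illustrates the contrast of UR, with changes against the HFD of -0.75 (liver), 0.52 (WAT) and -0.55 (muscle). The difference between liver and WAT was -1.27 (adjusted p = 3.08e-06), and that between liver and muscle -0.20 (adjusted p = 0.413). Csf2ra fell with UR in the liver and rose in WAT, a difference of -0.91 (adjusted p = 3.76e-07). Il15ra, by contrast, fell with the HFD in all 3 tissues, with changes of -0.41 (liver), -0.64 (WAT) and -0.28 (muscle), and the difference between liver and WAT did not pass (0.23, adjusted p = 0.0531). Among the 43 genes Il7r differed most in its response to the HFD, by -2.59 (liver minus WAT, adjusted p = 1.78e-13).

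**Figure D5:**
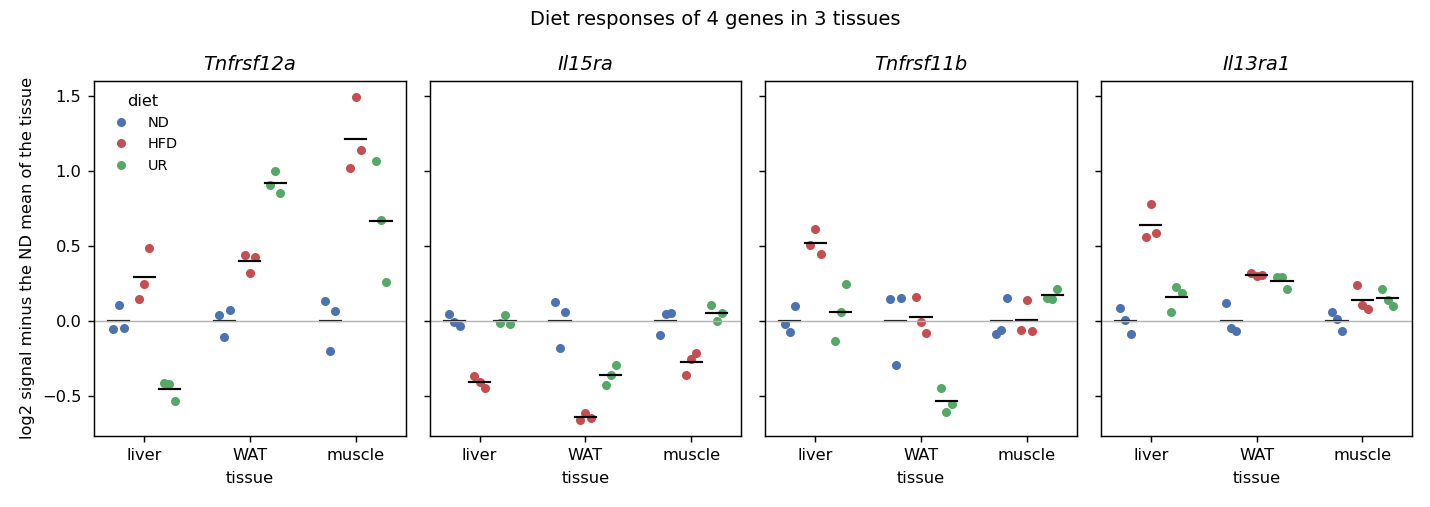
Log2 signal of 4 genes in the 3 tissues, each array minus the ND mean of its tissue. Points are pools, 3 for each diet, and lines are means. UR lowered Tnfrsf12a against the HFD in liver and muscle and raised it in WAT, and Il15ra is lower with the HFD in each tissue.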

How the data were processed

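Pooled total RNA was hybridised to Illumina MouseWG-6 v2 BeadChips, 1 pool to each of 27 arrays. The probe intensities and the detection p-values beside them were used as the authors deposited them from the scanner software, and the export settings are not given in the sources used here. A log2 table that the authors had quantile-normalized was also deposited. It served only as an alternative for liver and WAT, because all 45281 of its muscle rows equal the WAT values.

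From the intensities, signals of the 9 arrays of a tissue were quantile-normalized and log2-transformed, with no background correction. The annotation gave 34885 of 45281 probes 1 gene symbol. The brightest detected probe stood for a gene. Diets were compared with limma 3.58.1 in R 4.3.3 (lmFit, eBayes with an intensity trend, two-sided), with Benjamini-Hochberg adjustment within tissue and comparison. Tissue differences came from 1 limma model over 27 arrays, which treats tissues as independent. Precision is limited by how few arrays there are. A level bound ("at least") compares the bright diet with the lowest detected signal of each dim array.

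Up to 10 genes with the largest change and non-overlapping arrays were named per comparison, with genes the study names, Tnf, Il1b, Il6 and Il10, and receptor partners. Other called genes and the single cell markers were named after their values were seen. The genes and the lists of pathway genes and cell markers were chosen with earlier results of these data known. Alternatives covered background correction, scaling, detection filter, probe summary, variance model, array weights, replicate block, the methods' t-test, rank products and each array left out.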

Additional observations from a re-analysis of the deposited data

Results flagged for a closer look

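These genes are listed because the naming rule given above picked them for that comparison in either tissue of the pair. Their diet response also differed in size between the tissues in the limma model over 27 arrays (adjusted p under 0.05). The log2 differences are given. The list holds 10 of the 15 genes that differed between liver and WAT with the HFD, and 14 of the 21 with UR. Between liver and muscle with UR it holds 7 of 15. Genes left out include Il6ra (-1.03, liver minus WAT with UR) and Tnfrsf21 (-0.54, liver minus muscle with UR). With 3 pools in a group, single arrays were not examined as outliers.

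For the HFD against the ND, the liver response lay below that of WAT for Il7r (-2.59), Il1rn (-1.13), Tnfrsf1b (-0.70), Csf2ra (-0.57), Il27ra (-0.49), Il10rb (-0.49), Tnfrsf21 (-0.46) and Il1rap (-0.32), and above it for Il13ra1 (0.33) and Tnfrsf11b (0.50).

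For UR against the HFD, the liver response lay below that of WAT for Tnfrsf12a (-1.27), Csf2ra (-0.91), Il1rn (-0.87), Tnfrsf21 (-0.69), Il10ra (-0.63), Il5ra (-0.60), Tnfrsf17 (-0.54), Ifngr2 (-0.54), Il1b (-0.51), Il13ra1 (-0.44) and Il15 (-0.35). It lay above for Il16 (0.39), Il10rb (0.48) and Il18 (0.55). Against muscle, the liver response to UR was lower for Il5ra (-0.78), Tnfrsf11b (-0.63), Il13ra1 (-0.49) and Il15 (-0.48) and higher for Il20ra (0.27), Il16 (0.38) and Il10rb (0.44). The probe that stood for a gene in these comparisons was the brightest over both tissues, which for Il10rb was one that rose with UR in the liver.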

How the results depend on the processing

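Counts of called genes moved mostly with the test. The methods' t-test with unadjusted p and a fold threshold gave 5 genes for the liver with the HFD (16 with limma), 6 for the liver with UR (27), 13 and 3 for WAT (30 and 8), and 1 and 0 for muscle (6 and 10). With Benjamini-Hochberg adjustment that test gave 8 and 17 in the liver, 0 for WAT with UR, and 0 and 0 in muscle, where unadjusted p under 0.05 alone gave 17, 8 and 14. Rank products gave 2 and 1 in the liver, 8 for WAT with the HFD, and 1 and 1 in muscle. Array weights gave 13 for WAT with UR, and median scaling 5 for muscle with UR. Without a detection filter the tissue differences numbered 23, 37 and 31 (15, 21 and 15 with it). Leaving out single arrays gave 13 to 16 and 21 to 29 genes in the liver, 26 to 29 and 1 to 11 in WAT, 4 to 6 and 3 to 10 in muscle, and 11 to 16, 21 to 23 and 10 to 18 tissue differences.

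Between the diets of a tissue, replicate numbers showed no sign of pairing arrays. The correlations of same-numbered deviations ran from -0.17 to 0.22, and 1 of 9 in each tissue exceeded 0.1. Same-numbered arrays of different tissues were not compared in this way, so pairing across tissues was not tested. With the replicate number as a block, the tissue differences numbered 14, 22 and 16, and the counts of calls went from 16 to 15 and 27 to 29 (liver), 30 to 29 and 8 to 9 (WAT) and 10 to 8 (muscle with UR). Among the named genes 3 calls were lost, Il1b in WAT with the HFD (adjusted p = 0.0558) and Il10rb and Il20ra in muscle with UR (adjusted p of 0.0548 and 0.0610).

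The log2 changes of 82 gene comparisons were recomputed 1604 times, of which 1478 kept direction and side of the threshold, 105 were no longer past it, 9 newly passed and 12 reversed. Averaging a gene's probes turned liver Il10rb with UR to 0.26 (adjusted p = 0.0022), Il15 to 0.098 (0.0813) and muscle Il10rb with the HFD to -0.015, and median scaling turned the last to -0.039. The others arose from leaving out 1 array and none of them was past the threshold. With the HFD, liver Il5ra ranged from -0.18 to 0.024, WAT Tnfrsf17 from -0.022 to 0.067 and muscle Il10rb from -0.011 to 0.079. With UR, liver Il1rap ranged from -0.00071 to 0.16, WAT Il10rb from -0.010 to 0.25, Il1b from -0.019 to 0.084, Il1rap from -0.027 to 0.062 and Il5ra from -0.092 to 0.038. The causes were not tested. The authors' table was not run for muscle. For genes near the background, such as Tnf, Tnfrsf17 and Il5ra, signal over background limits what can be said to the bounds given.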
